A study of Mus musculus with 2 samples.

Results

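The genes described here encode secreted glycoproteins and proteoglycans of the extracellular matrix, together with the cell-surface proteoglycans and insulin-like growth factor binding proteins that work beside them. They were chosen by symbol: fibulins, fibrillins, small leucine-rich proteoglycans, elastin and its microfibril and emilin partners, latent TGF-beta binding proteins, nidogens, SPARC proteins, tenascins, thrombospondins, matrilins, CCN proteins, periostin, osteopontin, glypicans, syndecans and IGF binding proteins. The rule matched 72 mouse symbols, of which 57 had a tested probe, among 10137 named genes tested. The other 15 are not analysed here: Ccn6, Emilin3, Fbln1, Fbln7, Fbn1, Fbn2, Fn1, Hspg2, Igfbp3, Mfap1b, Mfap3l, Sdc1, Sdc3, Thbs1 and Vcan.

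RNA abundance was measured on 2 two-colour 60-base oligonucleotide arrays. The first channel (Cy3) held RNA of EB5 mouse embryonic stem (ES) cells grown on gelatin without feeder cells, transfected with Klf4 siRNA and the plasmid pCAGEGFP-IP, cultured for 24 h and then kept in puromycin for another 24 h to enrich transfected cells. The second channel (Cy5) held Universal Mouse Reference RNA, which pools 11 cultured lines of embryo, embryonic fibroblast, kidney, liver, alveolar macrophage, B and T lymphocyte, mammary gland, myoblast, skin and testis origin. Both arrays form 1 group (n = 2), with no dye swap and with no cells lacking Klf4 siRNA used here, so dye and RNA source cannot be told apart and no value below measures an effect of the siRNA. The labels do not say whether the arrays carry separate cultures, so p-values measure only the spread between these arrays, which may be technical.

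Small leucine-rich proteoglycans coat collagen fibrils and bind growth factors; fibrillins, fibulins and latent TGF-beta binding proteins build microfibrils and elastic fibres and hold TGF-beta in latent form. Matricellular proteins such as the CCN family, tenascin-C and osteopontin tune adhesion rather than bear load, and heparan sulphate proteoglycans present growth factors at the cell surface. Fibroblasts and other mesenchymal cells are known as the main makers of interstitial matrix, whereas ES cells grow as compact epithelial colonies.

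The targeted gene, Klf4, gave ES cell signals of 1826 and 2543 units against reference signals of 1518 and 1603 (log2 ratio 0.51 ± 0.11, SD, n = 2; limma adjusted p = 0.000389). This ratio lies inside the range of the negative control spots, whose mean log2 ratios reached 0.52. Without cells lacking the siRNA, the Klf4 ratio gives no measure of the knockdown. The ES cell label was borne out: 10 of 11 measured ES cell markers passed as higher (90.9%, against 31.7% of all gene probes). Of these, 9 were at least 2-fold higher, among them Sox2 at a log2 ratio of 5.69 and Pou5f1, which encodes Oct3/4, at 2.86. Esrrb, the other higher call at 0.27, lay inside the range of the negative control spots. All 9 measured fibroblast markers and all 6 macrophage markers passed as lower, against 31.5% of all gene probes. Summed fibroblast marker signals were 6264 and 7469 in ES cells against 71219 and 68851 in the pool. The median gene probe gave 308 and 355 units for ES cells and 246 and 264 units for the pool. Signals are in arbitrary units above local background. The 95th percentile of 162 negative control spots, called the negative control limit below, lay at 155 and 178 units on the ES cell side and at 40.9 and 58.4 units on the pool side.

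The array probes of the genes at both ends of the range are shown because every value below rests on them, and both Efemp2 probes because they disagree. They are written 5′ to 3′ as the deposited array files give them.
Bgn (chromosome X): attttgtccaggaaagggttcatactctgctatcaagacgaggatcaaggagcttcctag
Dcn (chromosome 10): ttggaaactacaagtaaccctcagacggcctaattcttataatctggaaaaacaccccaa
Efemp1 (chromosome 11): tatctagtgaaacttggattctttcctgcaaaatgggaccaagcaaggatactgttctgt
Nid2 (chromosome 14): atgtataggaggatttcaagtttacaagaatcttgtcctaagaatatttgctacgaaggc
Igfbp2 (chromosome 1): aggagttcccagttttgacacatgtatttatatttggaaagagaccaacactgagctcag
Efemp2, brighter probe (chromosome 19): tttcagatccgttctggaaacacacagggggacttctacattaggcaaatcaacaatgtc
Efemp2, dimmer probe (chromosome 19): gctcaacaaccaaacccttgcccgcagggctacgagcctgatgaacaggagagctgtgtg

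As a group, the matrix genes were mostly lower in siKlf4 ES cells than in the pool. Bgn, Dcn, Efemp1 and Spp1 had the lowest log2 ratios. A gene was called when the limma adjusted p, corrected by Benjamini-Hochberg over all 21028 gene probes tested, was under 0.05 and both arrays had the same sign. By that rule 37 of 57 genes were lower (64.9%, against 31.5% of all gene probes), 11 were higher (19.3%, against 31.7%) and 9 were not called. Called genes at least 2-fold lower numbered 22 (38.6%, against 5.19% of all gene probes), and those at least 2-fold higher numbered 2, Nid2 and Igfbp2 (3.51%, against 5.08%). The median log2 ratio was -0.41 over the matrix genes and -0.0073 over all gene probes. In RNA from whole cultures, fewer cells of a type and less RNA per cell cannot be told apart.

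The calls cover small ratios as well as large ones. Negative control spots, which match no mouse transcript, had mean log2 ratios between -0.25 and 0.52, and 106 of 161 of them passed the same test as higher and 9 as lower. In size, 28 of the lower matrix genes and 3 of the higher ones (Nid2, Igfbp2 and Mfap1a) exceeded the largest of these ratios, while 9 lower and 8 higher calls were smaller than it. The control spots were dim, with median signals of 129 and 138 units for ES cells and 28.5 and 32.3 for the pool. Their range was therefore not measured at the signal levels of bright genes such as Klf4 and Ltbp4. For 18 of the 22 genes at least 2-fold lower, both channels exceeded the negative control limit on both arrays. Matn2, Postn, Tnc and Emilin1 did not exceed it in ES cells on either array and are given as bounds. A bound takes the dim channel at the limit. The log2 ratios of Igfbp5 and Tnn, both counted as lower, changed sign at the bound.

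**Figure D1:**
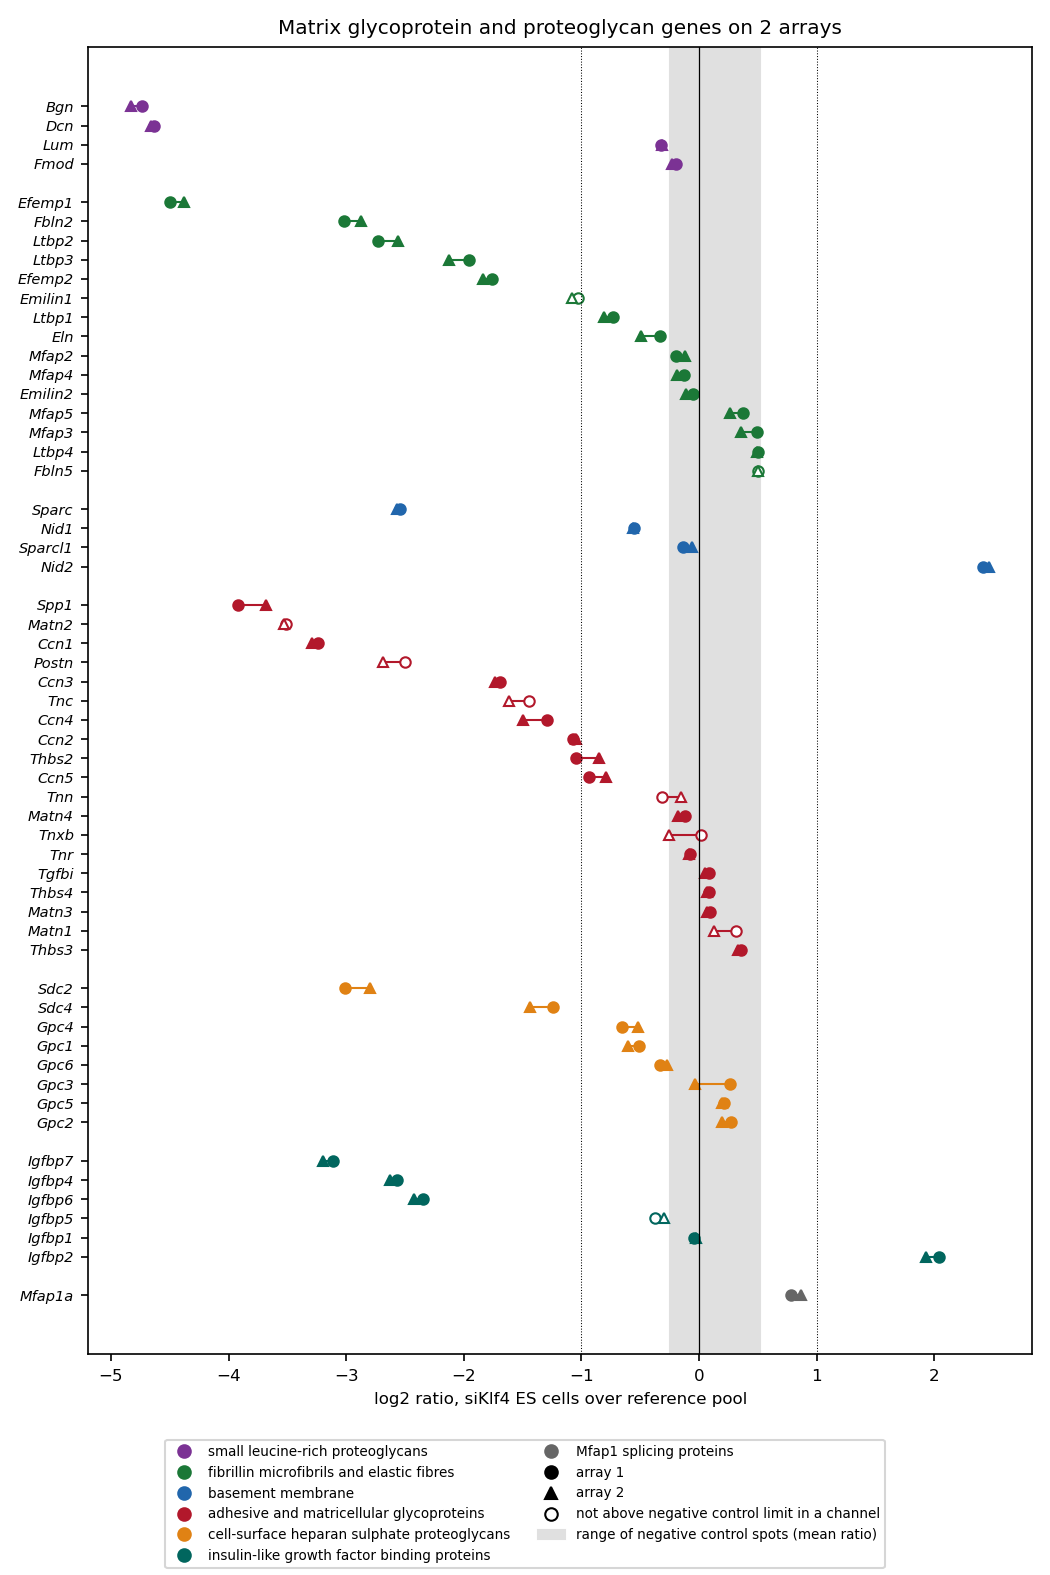
Log2 ratio of siKlf4 ES cells over the reference pool on array 1 (circles) and array 2 (triangles) for the 57 matrix genes, by role. Open symbols lack a signal above the negative control limit in a channel on at least 1 array, the grey band is the range of mean ratios at negative control spots (-0.25 to 0.52), and dotted lines mark 2-fold; Bgn, Dcn and Efemp1 lie farthest to the left and Nid2 and Igfbp2 farthest to the right.

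Small leucine-rich proteoglycans split into a strongly lower pair and a weakly lower pair. Bgn encodes biglycan, which binds collagen and TGF-beta. It gave 363 and 396 units in ES cells against 10092 and 10004 in the pool, a log2 ratio of -4.78 ± 0.063 (SD, n = 2) or 27.5-fold lower (limma adjusted p = 3e-07). Dcn encodes decorin, which sets the spacing of collagen fibrils. It gave 197 and 217 units in ES cells against 4635 and 4526 in the pool, a log2 ratio of -4.64 ± 0.018 or 24.98-fold lower. For both genes the pool signals lay far above the ES cell signals on each array, and the Dcn signal in ES cells was close to the negative control limit. Lum and Fmod encode the keratan sulphate proteoglycans lumican and fibromodulin. Their log2 ratios were -0.32 and -0.21, both called lower, with Fmod inside the negative control range. Its ES cell signals, 477 and 641 units, were close to those of the pool, 526 and 674.

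Microfibril and elastic fibre genes were lower in 10 of 15 cases (66.7%, against 31.5% of all gene probes). They were higher in 4 (26.7%, against 31.7%) and not called in 1. At least 2-fold lower were 6 of them, against 5.19% of all gene probes. Efemp1 encodes fibulin-3, a short fibulin of vessel walls and basement membranes. It gave 178 and 213 units in ES cells against 3659 and 3655 in the pool (log2 ratio -4.44 ± 0.082, 21.7-fold lower). Fbln2, a long fibulin that bridges microfibrils and basement membrane proteins, gave 962 and 1214 units in ES cells against 8475 and 8151 in the pool (log2 ratio -2.95 ± 0.10, 7.72-fold lower). The ES cell signal of Fbln2 stayed well above the limit, so both channels carried a measured level for it, whereas that of Efemp1 lay only a little above the limit on both arrays.

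Efemp2 encodes fibulin-4, which brings lysyl oxidase to elastin. Its brighter probe gave 203 and 214 units in ES cells against 551 and 546 in the pool (log2 ratio -1.80 ± 0.053, 3.49-fold lower). Its dimmer probe, nearer the 5′ end of the transcript, gave 201 and 202 units in ES cells against 184 and 183 in the pool, a log2 ratio of -0.60. Both probes were called lower, but they differed by 1.20 in log2 ratio, so the size of the Efemp2 difference is uncertain.

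Latent TGF-beta binding proteins did not move as 1 family. Ltbp2, which binds fibrillin and is not known to carry latent TGF-beta, gave 291 and 364 units in ES cells against 1921.5 and 1915 in the pool (log2 ratio -2.65 ± 0.12, 6.26-fold lower). Ltbp3, which holds latent TGF-beta, gave 293 and 300.4 units in ES cells against 1081 and 1092.5 in the pool (log2 ratio -2.04 ± 0.12, 4.11-fold lower). Ltbp1 was called lower at -0.77. Ltbp4, which contributes to elastic fibre assembly, passed the test in the opposite direction: it gave 3377 and 4113 units in ES cells against 2622 and 2687 in the pool, a log2 ratio of 0.50 that lies inside the negative control range.

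Emilin1, an elastin-associated glycoprotein gene, gave 114 and 111 units in ES cells, below the limit on both arrays, against 89.9 and 81.6 in the pool. Raw signals of the channels are on different scales, since a blank spot read 129 and 138 units (median of negative controls) for ES cells and 28.5 and 32.3 for the pool. After correction the log2 ratio was -1.05 ± 0.036, and with the ES channel at the limit the bound was at least 1.20-fold lower. Eln, the elastin gene, was called lower at -0.41, and the microfibril genes Mfap2 and Mfap4 at -0.16 each, inside the negative control range. Emilin2 was not called (-0.08; limma adjusted p = 0.112). Mfap3 and Mfap5 were called higher at 0.42 and 0.32. Fbln5, the elastic fibre assembly fibulin, had a log2 ratio of 0.50, with pool signals of 36.4 and 40.0 units below the limit on both arrays and a bound of at least 1.24-fold higher. These 3 ratios also lie inside the negative control range.

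Basement membrane genes held the largest positive ratio of the set. Nid2 encodes nidogen-2, which links laminin to collagen IV networks. It gave 2204 and 2689.5 units in ES cells against 442 and 452 in the pool, a log2 ratio of 2.44 ± 0.034 or 5.44-fold higher (limma adjusted p = 6.03e-07). Its paralog Nid1 was called lower, with 477 and 548 units in ES cells against 696 and 716 in the pool (log2 ratio -0.56 ± 0.0078). The nidogen genes therefore lay on opposite sides of the pool, each with the same sign on both arrays. Sparc, the gene of a collagen-binding calcium-binding glycoprotein, gave 1047 and 1255.5 units in ES cells against 6673.5 and 6834 in the pool (log2 ratio -2.55 ± 0.015, 5.87-fold lower). Sparcl1 was not called (-0.10; limma adjusted p = 0.0805).

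Adhesive and matricellular glycoprotein genes were lower in 12 of 19 cases, a share above the 31.5% of all gene probes. Another 2 were higher, a share below the 31.7% of all gene probes, and 5 were not called. At least 2-fold lower were 8 of them, against 5.19% of all gene probes. Spp1 encodes osteopontin, a secreted integrin ligand made by bone cells and macrophages among others. It gave 3847 and 4943 units in ES cells against 60305 and 56066 in the pool (log2 ratio -3.80 ± 0.17, 13.9-fold lower). Both channels were far above the limit for Spp1, so the low ratio went with a clear ES cell signal. Matn2, the gene of matrilin-2, a filament-forming adaptor, gave 146 and 161 units in ES cells, below the limit on both arrays, against 1294 and 1311 in the pool, at least 10.3-fold lower (log2 ratio as measured -3.52 ± 0.010).

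CCN genes encode modular secreted proteins that bind integrins and heparan sulphate; Ccn1 and Ccn2 are known targets of YAP with TEAD factors. Ccn1 gave 369.7 and 408 units in ES cells against 3681 and 3638 in the pool (log2 ratio -3.27 ± 0.036, 9.61-fold lower). Ccn3 gave 180.1 and 196 units in ES cells against 428 and 438 in the pool (log2 ratio -1.71 ± 0.026, 3.28-fold lower). Ccn4 gave 264 and 272 units in ES cells against 558 and 588 in the pool (log2 ratio -1.39 ± 0.14, 2.63-fold lower). Ccn1 thus had the lowest ratio among the measured CCN genes. Ccn2, which encodes connective tissue growth factor, gave 530.5 and 614 units in ES cells against 1177 and 1174 in the pool (log2 ratio -1.06 ± 0.017, 2.08-fold lower). Ccn5 was called lower at -0.86, just short of 2-fold. All 5 measured CCN genes were called lower, against 31.5% of all gene probes.

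Postn encodes periostin, a matricellular protein of fibroblasts and periosteum. It gave 97.8 and 95.1 units in ES cells, below the limit on both arrays, against 263 and 264 in the pool, at least 2.85-fold lower. The log2 ratio as measured was -2.59 ± 0.13. Tnc, the gene of tenascin-C, an anti-adhesive glycoprotein of developing and wounded tissue, gave 146 and 151 units in ES cells, below the limit on both arrays, against 232 and 249.8 in the pool, at least 2.49-fold lower. The other tenascin genes were near the pool or dim. Tnn (-0.23, called lower) and Tnxb (-0.12, not called) did not exceed the ES channel limit on either array and get no fold. With each dim channel at the limit the Tnn log2 ratio was 0.13, so its direction is uncertain. Tnr was not called (-0.08).

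The other members of the adhesive group lay within 2-fold. Thbs2, the gene of an anti-angiogenic thrombospondin, came nearest to 2-fold lower among them, with a log2 ratio of -0.95 ± 0.14. Thbs3 was called higher at 0.35 and Thbs4 was not called (0.07). Among matrilins, Matn4 was called lower (-0.15), Matn1 higher (0.22, with each channel above the limit on 1 array only) and Matn3 was not called (0.08). Tgfbi, whose protein is TGF-beta induced and binds integrins, was not called either, with 454 and 636 units in ES cells against 393 and 540 in the pool.

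**Figure D2:**
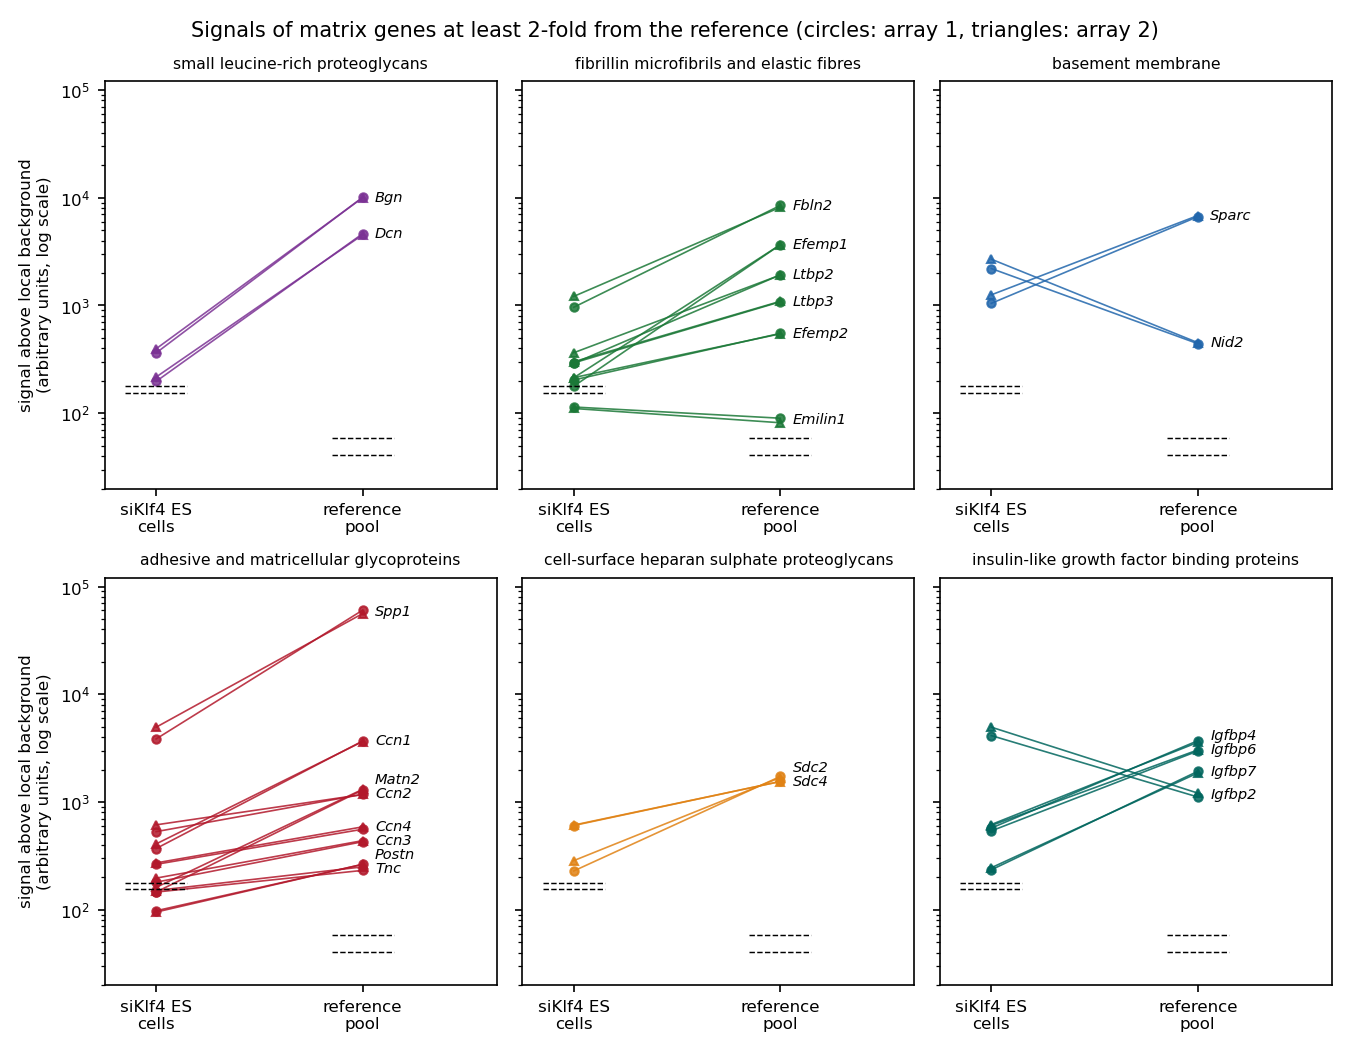
Signals above local background (arbitrary units, log scale) of the 24 matrix genes at least 2-fold from the pool, in siKlf4 ES cells (left) and the reference pool (right) of each panel, with circles for array 1, triangles for array 2 and dashed lines at the negative control limits. Nid2, Igfbp2 and Emilin1 fall to the right, and Emilin1, Postn, Tnc and Matn2 start below the ES channel limit. The channels are drawn before dye normalisation, so the slope of a line is not the log2 ratio.

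Cell-surface heparan sulphate proteoglycans act as co-receptors for growth factors and Wnt proteins. Their genes were lower in 5 of 8 cases, a share above the 31.5% of all gene probes. Another 2 were higher, a share below the 31.7% of all gene probes, and 1 was not called. The transmembrane syndecans had the lowest ratios. Sdc2 gave 229 and 285 units in ES cells against 1724 and 1683.5 in the pool (log2 ratio -2.90 ± 0.15, 7.48-fold lower). Sdc4, a syndecan of focal adhesions, gave 605 and 610.4 units in ES cells against 1549.9 and 1548 in the pool (log2 ratio -1.34 ± 0.14, 2.53-fold lower). No lipid-anchored glypican differed by 2-fold: Gpc4, Gpc1 and Gpc6 were called lower at -0.59, -0.56 and -0.30, and Gpc2 and Gpc5 higher at 0.23 and 0.20, inside the negative control range. Gpc3, an overgrowth syndrome gene in people, gave 1678 and 1754 units in ES cells against 1569 and 1714 in the pool and was not called. Its log2 ratio had opposite signs on the arrays, 0.26 and -0.03.

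IGF binding proteins carry insulin-like growth factors and alter their access to receptors. Of 6 measured genes, 4 were called lower (66.7%, against 31.5% of all gene probes). Another 1 was called higher (16.7%, against 31.7%) and 1 was not called. Igfbp7, whose protein binds IGFs weakly, gave 235 and 245 units in ES cells against 1927 and 1859 in the pool (log2 ratio -3.16 ± 0.058, 8.91-fold lower). Igfbp4, an inhibitory binding protein, gave 573 and 618 units in ES cells against 3706.5 and 3578 in the pool (log2 ratio -2.60 ± 0.044, 6.06-fold lower). Igfbp6, which prefers IGF2, gave 539 and 605 units in ES cells against 2973 and 3042 in the pool (log2 ratio -2.38 ± 0.059, 5.22-fold lower). All 3 had ES cell signals above the limit. Igfbp2 went the other way: it gave 4135 and 4949 units in ES cells against 1113 and 1209.5 in the pool (log2 ratio 1.99 ± 0.075, 3.96-fold higher; limma adjusted p = 1.38e-06). Igfbp5, the other lower call at -0.33, was below the ES channel limit on both arrays. With the ES channel at the limit its log2 ratio was 0.03, so its direction is uncertain and it gets no fold. Igfbp1 was not called (-0.03).

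Mfap1a matched the rule by name, but the protein it encodes works in the spliceosome rather than in the matrix. It was called higher at 0.82, and its second probe gave 1.02. Mfap1b is a near-identical copy, so the source of this signal is uncertain.

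The differences between the arrays were small beside the large ratios. Over the 57 genes the median absolute difference in log2 ratio was 0.079, against 0.059 over all probes, and the largest was that of Gpc3, at -0.29 for array 2 minus array 1. Gpc3, Tnxb and Spp1 exceeded the all-probe 95th percentile of 0.22. Signs differed between arrays for 2 genes, Gpc3 and Tnxb, neither of them called. Among the 24 genes at least 2-fold from the pool, limma adjusted p lay between 3e-07 and 1.2e-05.

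**Figure D3:**
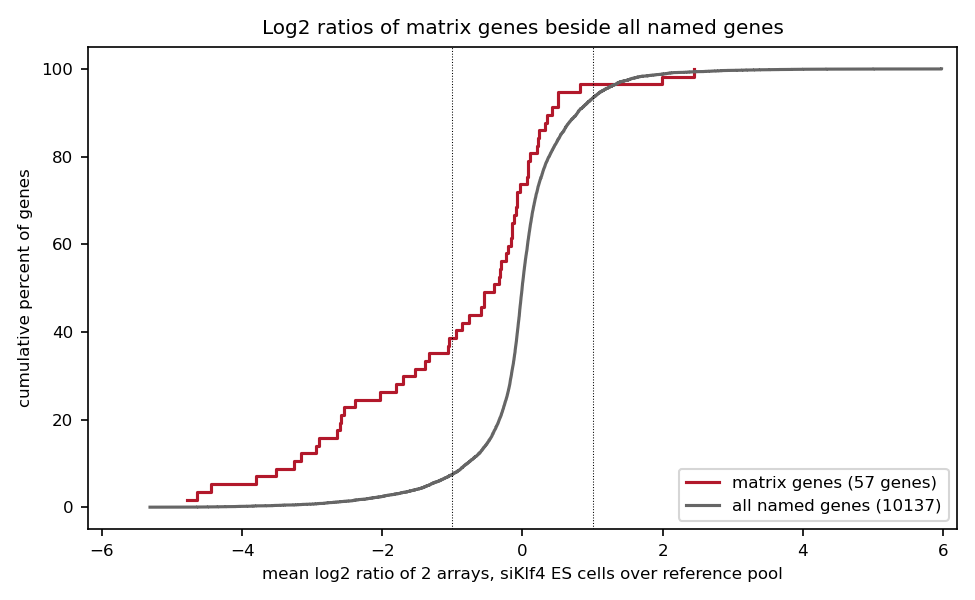
Cumulative percent of genes by mean log2 ratio of siKlf4 ES cells over the reference pool, for the 57 matrix genes (red) and all 10137 named genes (grey), with dotted lines at 2-fold. The matrix curve lies left of the other curve over most of its range and reaches 38.6% at the 2-fold lower line.

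Fold sizes depended on background correction, also for genes with ES cell signals well above the limit, such as Sdc4 and Ccn2. Without background subtraction 14 of the 22 genes remained at least 2-fold lower, and both higher genes remained at least 2-fold higher. Ccn2, Ccn3, Ccn4, Efemp2, Emilin1, Postn, Tnc and Sdc4 then fell short of 2-fold. The log2 ratio of Bgn was -3.69 without subtraction, that of Dcn -2.97 and that of Efemp1 -2.71. Those of Matn2, Ccn1, Igfbp7 and Sdc2 were -1.69, -2.30, -1.84 and -1.68. Spp1, with strong signals in both channels, moved least of the 22, to -3.63. Nid2 and Igfbp2 stood at 1.82 and 1.73.

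**Figure D4:**
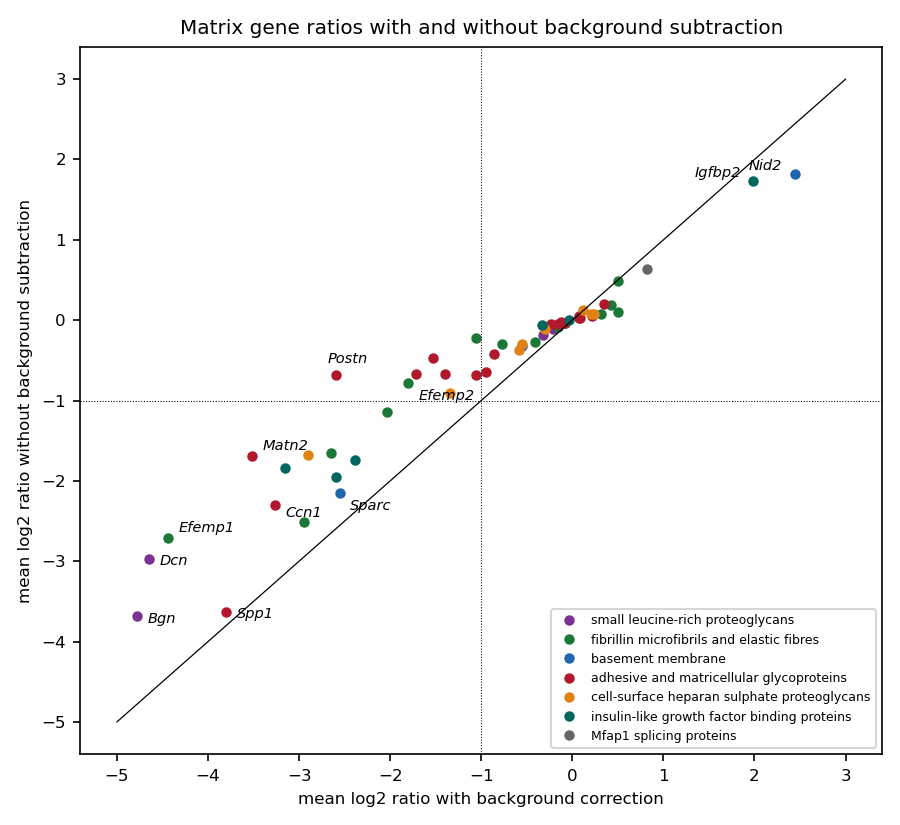
Mean log2 ratio (siKlf4 ES cells over reference pool, n = 2 arrays) of each matrix gene with background correction (horizontal axis) and without background subtraction (vertical axis), coloured by role. The solid line marks equal values and dotted lines 2-fold lower; most lower genes lie above the line, such as Dcn at -4.64 and -2.97, and Spp1 lies near it at -3.80 and -3.63.

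Genes of connected processes were summarised from lists whose members are not in the set above. Among 23 measured genes of glycosaminoglycan chain synthesis and remodelling, 8 were higher (34.8%, against 31.7% of all gene probes), 9 lower (39.1%, against 31.5%) and 6 not called, with a median log2 ratio of 0.05. Both shares are near those of all gene probes. Papss1, which makes the sulphate donor, had a log2 ratio of -1.82, and Ext2, a subunit of the heparan sulphate polymerase, -1.34. The 6-O-endosulphatases Sulf1 and Sulf2, which trim heparan sulphate outside the cell, were higher at 1.61 and 0.94. Sulf1 gave 449 and 587 units in ES cells against 101 and 121 in the pool.

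Matrix cross-linking enzymes and partner proteins were lower in 14 of 22 cases (63.6%, against 31.5% of all gene probes). The list had 1 higher gene (4.55%, against 31.7%) and a median log2 ratio of -0.48. Lox, the lysyl oxidase that cross-links collagen and elastin, was at least 12.7-fold lower, with ES cell signals of 134 and 154 units below the limit against 1621 and 1638 in the pool. Mgp, the gene of an inhibitor of matrix calcification, had a log2 ratio of -2.98. Ogn, a small leucine-rich proteoglycan gene outside the rule, had -2.72, with its ES cell signal above the limit on 1 array only. Srgn, which encodes the intracellular proteoglycan serglycin of blood cells, was at least 5.20-fold lower.

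TGF-beta pathway genes were lower in 8 of 13 cases (61.5%, against 31.5% of all gene probes). The list had 3 higher genes (23.1%, against 31.7%) and a median log2 ratio of -0.23. The receptor gene Tgfbr2 was at least 3.96-fold lower and the ligand gene Tgfb2 at least 2.39-fold lower. Nrros, which anchors latent TGF-beta 1 on myeloid cells, had a log2 ratio of -1.39. In the IGF axis 3 of 10 genes were higher and 3 lower, shares near those of all gene probes (31.7% and 31.5%), with a median of 0.01. Htra1, a protease that cleaves IGF binding proteins, had a log2 ratio of -1.53. The IGF2 mRNA binding protein genes Igf2bp3 and Igf2bp2 were higher at 0.99 and 0.32, and Igf1 was lower at -0.59.

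Fibroblast and macrophage marker lists were lower throughout. The endoderm list was mostly lower, with a median log2 ratio of -0.78, as were the matrix genes, with -0.41. The 9 measured fibroblast markers were lower in every case, against 31.5% of all gene probes, and 8 of them at least 2-fold. Lox (also in the cross-linking list) and Col6a1 were below the ES channel limit on both arrays. Macrophage markers summed to 1452 and 1566 units in ES cells against 8946 and 8777 in the pool. Of 9 measured primitive and parietal endoderm markers, 6 were lower (66.7%, against 31.5% of all gene probes), 2 of them at least 2-fold. Of the others, 1 (Lama1, at 1.36) was higher (11.1%, against 31.7%) and 2 were not called. Their summed signals were 2468 and 2934 units in ES cells against 3323 and 3552 in the pool. The part of the pooled fibroblast and macrophage lines in the matrix ratios was not tested.

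Promoter sequence was examined as a description, in windows from 250 bases before to 50 bases after each annotated start (RefSeq, GRCm38.p6). Windows were found for 42 of the 57 genes, 55 in all, some of which overlap. The motif TATAAA, the core of the TATA box, was on either strand in 16.4% of matrix gene windows and in 13.6% of all 32851 promoter windows. It was in 33.3% of 21 windows of genes at least 2-fold lower and in 6.25% of 32 windows of genes within 2-fold or not called. The first share counts both Tnc windows, which overlap and hold the same match, at -205 and -126 from their annotated starts. It also counts a match at -211 in Spp1. In Igfbp6, and in Gpc5 and Thbs2 within 2-fold, the match was on the opposite strand. The GC box core GGGCGG was in 58.2% of matrix gene windows against 35.7% of all windows, with 57.1% in the lower genes and 59.4% in those within 2-fold or not called. The motif CACCC, found in sites of Klf4 and its relatives, was in 70.9% against 57.5%, and GGAATG, the core of TEAD sites, in 18.2% against 14.7%. Split by class, CACCC was in 57.1% of windows of genes at least 2-fold lower and in 78.1% of those within 2-fold or not called. GGAATG was in 4.76% of windows of the lower genes and in 28.1% of the others, so both had the opposite order to TATAAA. Motif matches may overlap one another, and the median ratio of observed to expected CpG was 0.614 in matrix gene windows and 0.384 in all windows.

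The 3 lower genes with TATAAA close before the start are shown beside Igfbp2, a higher gene whose window has none; capitals mark TATAAA on the gene's own strand, and sequences run 5′ to 3′ on that strand.
Ccn1, chr3:145649936-145650235, minus strand: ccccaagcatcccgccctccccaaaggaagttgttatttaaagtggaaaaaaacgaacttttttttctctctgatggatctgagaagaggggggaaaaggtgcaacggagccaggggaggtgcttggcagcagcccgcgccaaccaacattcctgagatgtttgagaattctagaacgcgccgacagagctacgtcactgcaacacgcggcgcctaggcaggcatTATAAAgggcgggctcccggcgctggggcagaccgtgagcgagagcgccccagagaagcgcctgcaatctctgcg
Igfbp4, chr11:99040994-99041293, plus strand: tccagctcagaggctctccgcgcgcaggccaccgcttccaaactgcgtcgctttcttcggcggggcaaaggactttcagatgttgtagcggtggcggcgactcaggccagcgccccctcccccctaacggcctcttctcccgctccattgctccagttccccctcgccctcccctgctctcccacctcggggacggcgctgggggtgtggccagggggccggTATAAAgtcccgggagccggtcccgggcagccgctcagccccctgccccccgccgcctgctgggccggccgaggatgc
Postn, chr3:54360857-54361156, plus strand: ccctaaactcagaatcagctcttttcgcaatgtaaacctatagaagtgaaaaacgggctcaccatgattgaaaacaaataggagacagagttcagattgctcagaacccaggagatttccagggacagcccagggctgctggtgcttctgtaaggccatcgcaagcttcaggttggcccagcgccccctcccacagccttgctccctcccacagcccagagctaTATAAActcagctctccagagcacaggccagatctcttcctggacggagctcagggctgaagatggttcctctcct
Igfbp2, chr1:72824230-72824529, plus strand: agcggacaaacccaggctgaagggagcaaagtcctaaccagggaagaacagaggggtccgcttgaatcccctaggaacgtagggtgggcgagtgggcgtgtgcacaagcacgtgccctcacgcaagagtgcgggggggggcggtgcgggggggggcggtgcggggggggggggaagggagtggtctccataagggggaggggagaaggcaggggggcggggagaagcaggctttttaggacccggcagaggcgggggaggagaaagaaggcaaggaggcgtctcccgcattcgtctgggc
The motif begins at position -25 from the annotated start in Ccn1, at -28 in Igfbp4 and at -26 in Postn. Igfbp2 and Postn each have a further window that holds no TATAAA.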

How the data were processed

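Probe intensity was measured on 2 arrays of siKlf4 EB5 ES cells against a common reference. Per the file headers, the authors read their scans with Agilent Feature Extraction A.7.5.1. The deposited array files give intensity (mean spot signals, local background medians) and processed signals with log10 ratios of red over green. The deposited series table of log10 values equals, for 99.6% of probes on each array, the mean log10 red processed signal minus that array's ratio (within 2e-04), so it was used only through those ratios.

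Mean signals were corrected with limma 3.58.1 (R 4.3.3) by normexp with an offset of 50 and normalised by loess within arrays, with control and outlier spots at weight 0; ratios are log2 of ES cells over reference. After leaving out 24 outlier probes, 21028 were tested against 0 (lmFit, eBayes, Benjamini-Hochberg, 1 residual and 4.38 prior degrees of freedom). Depth for arrays is limited by their number. Symbols came from RefSeq accessions: 10422 probes had 1 symbol and 10630 none. The brightest probe stood for a gene. In simulated data on 21028 probes, 98% and 100% of probes changed by 0.5 and 1 in log2 were called, and 0% of those changed by 0.25. Unchanged probes made up 8.71% and 7.45% of the calls at 0.5 and 1, above the nominal level. At 0.25 they made up a mean of 20%, where few or no calls were made. Each simulation changed 200 probes, whereas 31.7% of the real probes were called higher and 31.5% lower. The simulated rates therefore do not describe the calls reported here. The genes, lists, settings and naming rule were chosen with earlier results of these data known: all matrix genes may be named, with full values for those at least 2-fold away or given as a bound, and up to 4 genes of each list. A gene that this rule gives is not reported here. No saturated spot was among the matrix genes. The motif and CpG counts carry no test.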

Additional observations from a re-analysis of the deposited data

How the results depend on the processing

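With 2 arrays, 1 dye orientation and no cells without the siRNA, the ratios describe these arrays, and signal over background limits the dim genes. Without background subtraction 14 matrix genes were at least 2-fold lower, and their median log2 ratio was -0.22. It was -0.64 with median centring and -0.62 with offset 0, while that of all gene probes lay between -0.024 (offset 0) and 0.0025 (median centring). Counts of genes at least 2-fold lower were otherwise between 18 (only genes above negative controls in both channels) and 24 (offset 0), and 22 and 23 with replicate 1 or replicate 2 left out, when the median was -0.49 and -0.37. Genes called lower numbered 31 to 37 and called higher 9 to 12. The 2 genes at least 2-fold higher stayed so in each setting run. No called gene reversed where it was tested. Of the 24 genes beyond 2-fold, Matn2, Postn, Tnc and Emilin1 were not tested under the negative control filter, and none lost its call in the tested settings that held it. Calls ended for Matn1, Matn4 and Tnn without background subtraction, and for Igfbp5, Matn4 and Tnn with median centring, which added Emilin2, Matn3, Sparcl1 and Tnr. Over all gene probes, 510 were at least 2-fold higher and 467 lower without background subtraction, against 1068 and 1092. The cause was not tested. No paired analysis was possible because the labels give 1 group only.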
